A study of Mus musculus with 4 samples.

Results

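The subject is a group of 5 mouse genes that belong to interleukin-10 (IL-10) biology: Il10, Il24 and Mapkapk2, which lie close together on chromosome 1, and Il10ra and Il10rb, the genes of the IL-10 receptor chains. They were taken by name from a table of 26207 genes, and all 5 had values. The table holds 4 bulk RNA-seq libraries of T helper 2 (Th2) cells with spleen given as the tissue, 2 of cells given phosphate-buffered saline (PBS) and 2 of cells given 10 µM dopamine. No genotype, strain, age, culture time or route to the Th2 state is given in the sources used here, and the 2 libraries of a group may share an animal or a culture, so the p-values measure library-to-library spread alone, part or all of which could be technical. The letters A and B only name the columns of a group.

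IL-10 is a secreted dimer known for restraining inflammation, and Th2 cells are among the helper T cells long known to make it. It binds IL-10RA, the chain that holds the kinase JAK1, together with IL-10RB, the chain that holds TYK2 and is shared with the receptors for IL-22 and the lambda interferons. The pair activates STAT3, which drives genes such as the feedback inhibitor Socs3. IL-24 is a relative of IL-10 that does not use this receptor: it acts through IL-20RB paired with IL-20RA or IL-22RA1, chains best known from epithelial cells. Mapkapk2 encodes MK2, a kinase activated by p38 that phosphorylates the RNA-binding protein tristetraprolin and so affects the stability of cytokine messages.

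The values are the authors' normalized read counts, each gene's reads divided by a size factor of its library. Total reads assigned to genes ran from 5717408 in PBS A to 14167357 in dopamine A, and a read was worth 1.70 normalized counts in PBS A against 0.766 to 0.971 in the other libraries. Helper T cell transcripts were abundant, with Cd4 at 4253 ± 24.3 (SD, n = 2) with PBS and 4668 ± 115 with dopamine. Gata3, the Th2 lineage factor, was detected in all 4 libraries, at 237 ± 8.70 and 224 ± 24.1. Tbx21, the Th1 factor, stood above it at 663 ± 31.2 and 1299 ± 86.9, though its annotated exons are shorter (2488 against 3978 bases). The Th2 cytokine gene Il4 was at 165 ± 19.4 and 754 ± 42.7. The 5 genes were selected on the dopamine and PBS values of these same 4 libraries. Their differences are therefore given as a description with a standard error (SE) and no p-value, whereas genes outside the group were tested with limma across all genes. Log2 differences were taken between log2(value + 1) with dopamine and with PBS, a scale that understates the change of low genes.

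Mapkapk2 was the member for which RefSeq's promoter table (build GRCm38.p6, the assembly also called mm10) gave a sequence, 1 of the 5. The 250 bases before its start are shown so that the motifs searched can be read in place. They span chr1:131097844-131098093 on the minus strand, 5′ to 3′ in the direction of the gene, and capitals mark the motif found.
Mapkapk2 promoter: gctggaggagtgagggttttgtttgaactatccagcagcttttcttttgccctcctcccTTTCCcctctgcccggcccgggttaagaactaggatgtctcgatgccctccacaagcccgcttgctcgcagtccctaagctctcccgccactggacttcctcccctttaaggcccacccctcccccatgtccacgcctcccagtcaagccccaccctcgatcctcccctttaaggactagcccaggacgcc
The motifs searched on both strands were TGANTCA (AP-1), TGACGTCA (cAMP response element), TTCNNNGAA (STAT), TGCTGA (MAF), GATAA (GATA) and GGAAA (NFAT core). The match was a GGAAA on the opposite strand, between 191 and 187 bases before the start, a motif that 55.6% of 32851 promoter windows of this length held. No match to the other 5 was in this window, and they occurred in 6.75%, 1.55%, 7.02%, 16.1% and 22.6% of windows in the order given. Matches of TTCNNNGAA and GGAAA can share bases, though here there was only the 1 match, and a match is only a match of letters.

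Both cytokine genes stood higher in the dopamine libraries, Il24 by far the more. Il10 (chromosome 1, 131019845 to 131024974, plus strand) was at 170 normalized counts in PBS A, 203 in PBS B, 463 in dopamine A and 455 in dopamine B. The groups did not overlap, and the dopamine libraries lay closer to each other than the PBS libraries did. Group means were 186 ± 23.4 and 459 ± 5.28 (SD, n = 2), a ratio of 2.46 and a log2 difference of 1.30 (SE 0.12). Il10 rested on 100 to 600 reads in each library.

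Il24 (chromosome 1, 130882074 to 130887454, minus strand) was at 13.6 in PBS A, 17.6 in PBS B, 152 in dopamine A and 162 in dopamine B. It was scarce in both PBS libraries and readily detected in both dopamine libraries, again with no overlap. The PBS values rest on 8 and 23 reads and the dopamine values on 197 and 167. Their exact 95% Poisson intervals, which cover counting error only, run from 5.87 to 26.8 in PBS A and from 131 to 175 in dopamine A. Means were 15.6 ± 2.85 and 157 ± 7.20, a ratio of 10.1 and a log2 difference of 3.26 (SE 0.23). That placed Il24 in position 7 of 26207 genes by log2 difference and Il10 in position 436.

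**Figure D1:**
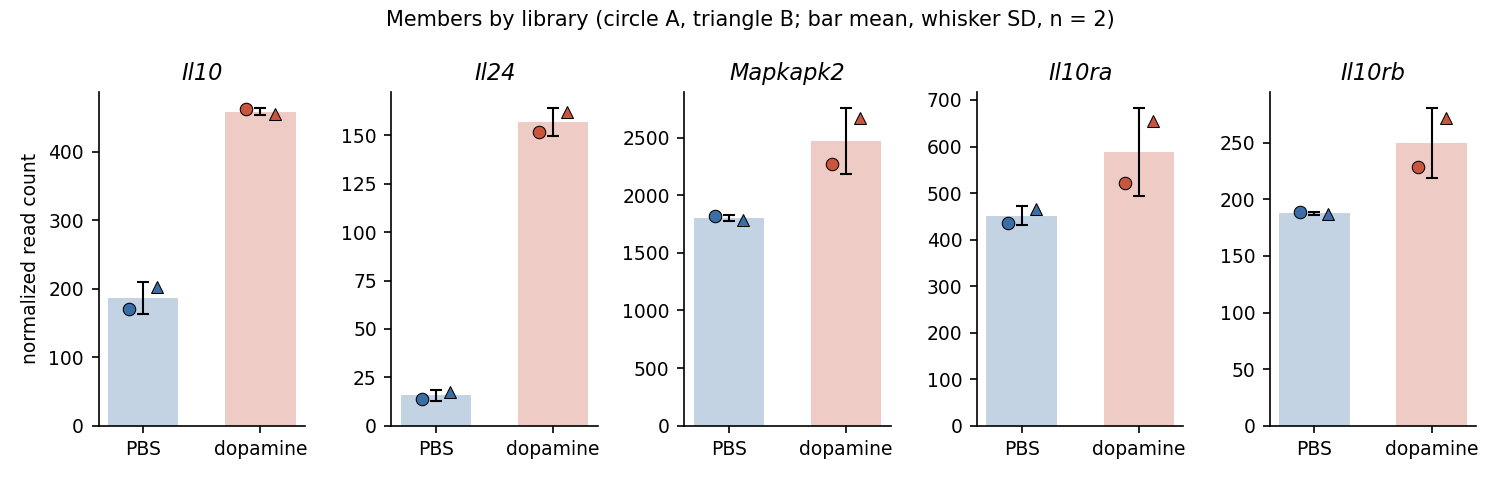
Normalized read count (vertical axis, from 0) of each of the 5 genes in the PBS and dopamine libraries. Circles are library A, triangles library B, bars the mean of n = 2 and whiskers the SD. In every panel both dopamine points lie above both PBS points, with Il24 going from 15.6 to 157 and the receptor genes showing the smallest ratios.

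Mapkapk2, whose product MK2 acts in p38 signalling, was abundant in both groups and modestly higher with dopamine. It lies on the minus strand of chromosome 1 from 131053700 to 131097826, 28.7 kb beyond the end of Il10. Its values were 1819 and 1785 in PBS A and B, and 2270 and 2674 in dopamine A and B. The PBS libraries were nearly equal and dopamine B was the highest. Means were 1802 ± 24.1 and 2472 ± 285, a log2 difference of 0.45 (SE 0.07). The annotation places Gm37084, at 15.3 ± 0.0247 and 22.9 ± 3.58, inside Mapkapk2 on the same strand, so reads there could belong to either.

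The receptor genes differed least. Il10ra (chromosome 9, 45253837 to 45269149), which encodes the ligand-binding chain, was at 437 and 467 in PBS A and B and at 522 and 655 in dopamine A and B. Il10rb (chromosome 16, 91406164 to 91425834), which encodes the shared chain, was at 189 and 187 with PBS and at 228 and 272 with dopamine. In each gene the lower dopamine library stood above both PBS libraries, by 55.7 for Il10ra and 39.8 for Il10rb, and dopamine B was again the highest. The log2 difference was 0.37 (SE 0.10) for Il10ra and 0.41 (SE 0.13) for Il10rb.

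In all 5 genes both dopamine libraries were above both PBS libraries, a pattern found in 28.5% of all genes and in 60.8% of the 8492 abundant genes, those whose mean normalized count was 100 or more. Nothing is read from that count, since the genes were chosen with these values known. Abundant genes were higher in general in the authors' scaling: the median log2 difference was 0.198 among abundant genes and -0.0812 among all genes. Il10ra, Il10rb and Mapkapk2 exceeded the former by 0.18, 0.21 and 0.25, whereas Il10 exceeded it by 1.10 and Il24 by 3.06. Rescaling the libraries on the abundant genes took the median of all genes to -0.256. The differences were then 1.11 for Il10, 3.07 for Il24, 0.26 for Mapkapk2, 0.18 for Il10ra and 0.21 for Il10rb. The receptor differences were smaller without dopamine B, when Il10ra was at 0.21 and Il10rb at 0.28 on the log2 scale, against a median of 0.172 among abundant genes, and larger without dopamine A, at 0.54 and 0.53. Il10 ranged from 1.17 to 1.43 and Il24 from 3.08 to 3.44 over the fits that left out 1 library each. In the authors' deposited table the log2 fold changes were 1.28 for Il10, 3.28 for Il24, 0.46 for Mapkapk2, 0.38 for Il10ra and 0.41 for Il10rb.

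**Figure D2:**
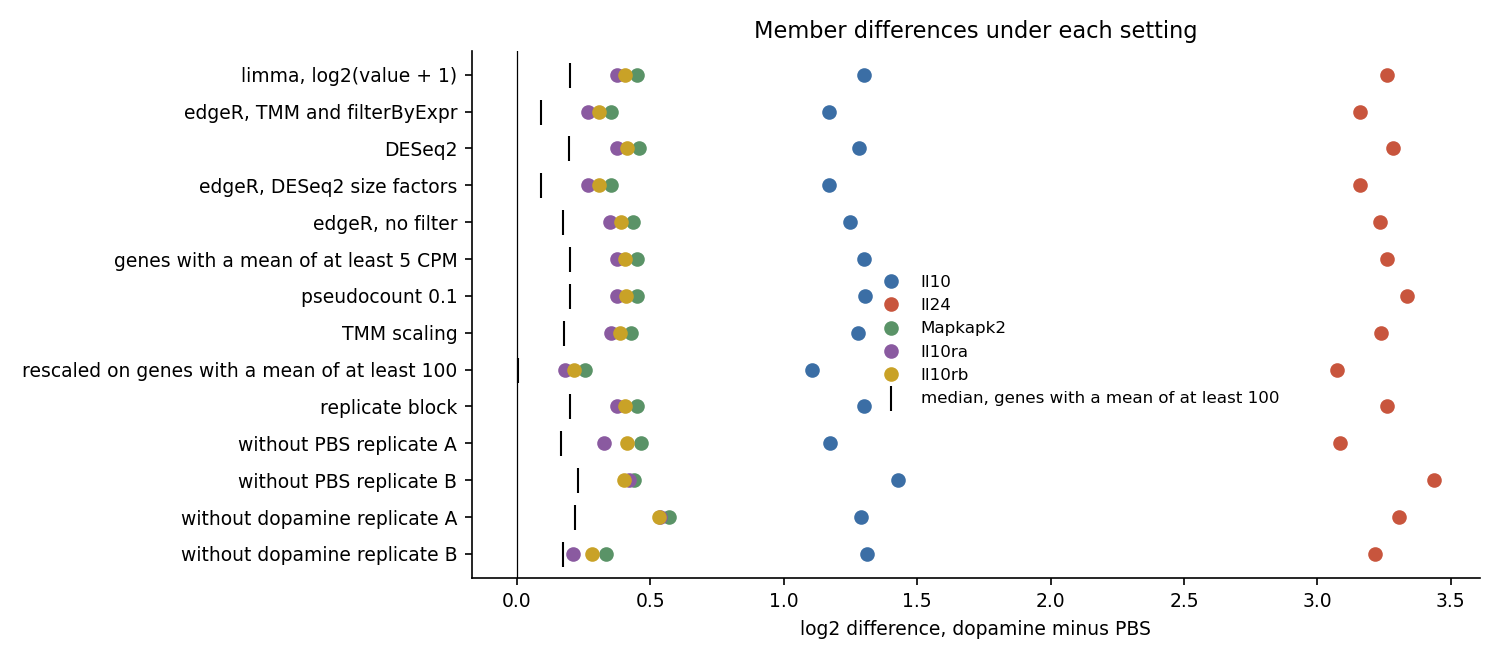
Log2 difference (horizontal axis, dopamine minus PBS) of the 5 genes under each way of fitting (vertical axis), with the median of abundant genes (mean 100 or more) as a black tick. Il24 stays above 3 and Il10 above 1 throughout, whereas Mapkapk2, Il10ra and Il10rb lie closer to the median tick, between 0.18 and 0.57.

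Levels of different genes were set side by side per length, as normalized counts per kb of annotated exon (GENCODE M21). With PBS the order was Mapkapk2 at 593 ± 7.94, Il10 at 142 ± 17.9, Il10ra at 129 ± 6.07, Il10rb at 49.3 ± 0.299 and Il24 at 11.3 ± 2.06 (SD, n = 2). Il10 and Il10ra overlapped there, from 130 to 155 and from 125 to 133 per kb, and the other neighbours in the order did not. With dopamine the order was Mapkapk2 at 813 ± 93.9, Il10 at 350 ± 4.03, Il10ra at 168 ± 26.9, Il24 at 113 ± 5.19 and Il10rb at 65.7 ± 8.08, with no overlap between neighbours. Per kb, Il10ra was 2.52 and 2.72 times Il10rb in PBS A and B, and 2.49 and 2.62 times in dopamine A and B, so the ratio of the receptor chains stayed between 2.49 and 2.72. Il10 was 13.2 and 12.2 times Il24 per kb with PBS but 3.22 and 2.97 times with dopamine. Set against its own receptor gene, Il10 was 1.04 and 1.16 times Il10ra per kb with PBS and 2.37 and 1.86 times with dopamine.

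The chromosome 1 neighbourhood was examined through every annotated gene within 500 kb of the Il10 start. There were 37, of which 26 had values, 3 members and 23 others. Of these 23, limma called 3, 2 higher and 1 lower (adjusted p below 0.05, Benjamini-Hochberg over all genes). Of all genes 21.3% were called, 14.3% higher and 7.00% lower. The genes that rose were Dyrk3 and Eif2d, next in order beyond Mapkapk2, and the gene that fell was Rassf5, next after them. Of the 23, 8 had a mean of at least 20.

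Dyrk3, which encodes a dual-specificity kinase, lies 29.6 kb beyond Mapkapk2 (131127455 to 131138340, minus strand). It was at 30.6 and 46.7 in PBS A and B and at 69.4 and 70.9 in dopamine A and B, a log2 difference of 0.87 (SE 0.23, limma adjusted p = 0.00442). The PBS values rest on 18 and 61 reads, and the call ended without PBS A (0.58), without dopamine B (0.86) and in DESeq2 (0.82). Eif2d, which encodes a translation initiation factor (131153181 to 131187658, plus strand), rose from 895 ± 64.7 to 1154 ± 79.3, a log2 difference of 0.37 (SE 0.09, limma adjusted p = 0.00105). Its call ended without PBS A (0.29), without dopamine B (0.30) and after rescaling on abundant genes (0.17).

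Rassf5, which encodes the RAP1 effector RAPL, known for its part in lymphocyte adhesion (131176410 to 131245258, minus strand), fell from 2070 ± 168 to 1724 ± 132, a log2 difference of -0.26 (SE 0.08, limma adjusted p = 0.00883). Its call ended without PBS B (-0.18) and without dopamine A (-0.19). Eif2d and Rassf5 overlap on opposite strands and no source used here gives the strand setting of the counting, so their reads may not have been told apart where they overlap. The other 5 neighbours with a mean of at least 20 were not called: Pfkfb2 at -0.21, Yod1 at -0.01, Ikbke at 0.03, Srgap2 at 0.02 and Gm28913 at 0.05 on the log2 scale, with adjusted p of at least 0.512. Yod1 overlaps Pfkfb2, and Gm28913 overlaps Ikbke, on the opposite strand. The 15 neighbours with a mean under 20 were not called either.

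Between Il24 and Il10 lie Il20 and Il19, other IL-10 relatives, of which Il20 is 19.5 kb from Il24. Il20 had 1 and 5 reads with PBS and 2 and 1 with dopamine, too few reads for a difference to be detectable (limma adjusted p = 0.618). Its normalized counts were 1.70 and 3.83 with PBS and 1.54 and 0.971 with dopamine. On the other side of Il24, 1.28 kb from it, Fcmr, which encodes the IgM receptor, had 10.4 ± 9.30 with PBS and 4.84 ± 1.39 with dopamine (adjusted p = 0.451). Il19 and Il22 had no values here, so nothing is said of their levels.

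**Figure D3:**
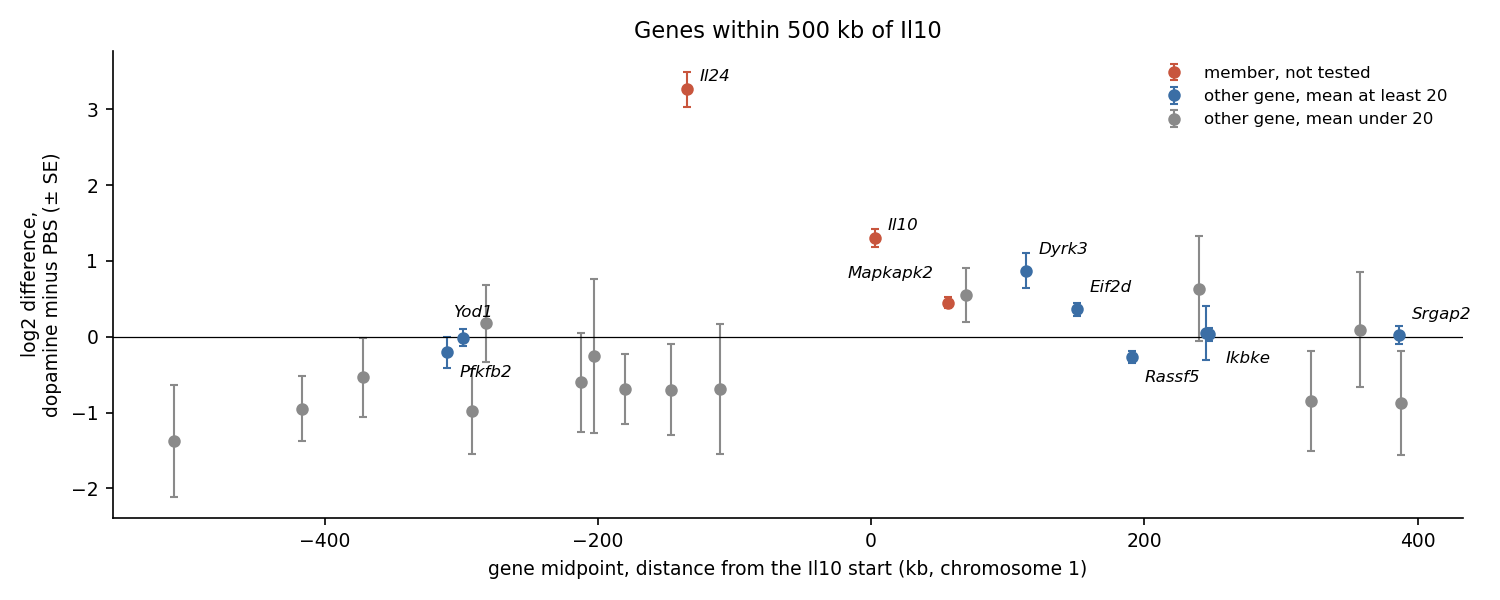
Log2 difference with its SE (vertical axis) of the 26 genes with values within 500 kb of Il10, by distance of the gene's midpoint from the Il10 start in kb (horizontal axis). Il24 at 3.26 and Il10 at 1.30 stand above the neighbours, Dyrk3 and Eif2d lie above 0 beyond Mapkapk2, and Rassf5 lies below 0.

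Receptor genes of the class II cytokine family, to which the IL-10 receptor chains belong, gave 0 higher and 2 lower calls (20%) among 10 non-members. Among all genes 14.3% were called higher and 7.00% lower. The receptor genes had a median log2 difference of -0.45 against -0.0812 for all genes. That median falls among scarce genes: 5 of the 10 had a mean normalized count under 5, and 4 were abundant. The clearer call was Ifngr1, the ligand-binding chain of the interferon-gamma receptor, which fell from 1071 ± 75.8 to 632 ± 52.5 (-0.76, SE 0.09, limma adjusted p = 6.04e-09). Ifngr2 (-0.02), Ifnar1 (-0.02) and Ifnar2 (0.01), chains of the interferon receptors, were not called. Of the chains that bind IL-24, Il20rb was present and alike in both groups, at 39.1 and 57.5 with PBS and 54.0 and 49.5 with dopamine (log2 difference 0.12, 95% interval -0.35 to 0.60, adjusted p = 0.758). Il20ra had 1 and 8 reads with PBS and 0 and 1 with dopamine (adjusted p = 0.216). Il22ra1 had 4 and 9 reads with PBS and 0 and 2 with dopamine and was called lower (limma adjusted p = 0.039), but not with a pseudocount of 0.1 or without PBS A, PBS B or dopamine A. A count of 0 in dopamine A allows up to 3 reads, or 2.31 normalized counts, as a one-sided 95% limit for counting error.

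Genes that carry the IL-10 signal showed small differences. Of 13 genes of the JAK-STAT machinery, limma called 3 higher (23.1%) and 0 lower. Among abundant genes, to which 12 of the 13 belong, 39.1% were called higher and 7.90% lower. The median log2 difference of the list was 0.07 against 0.198 among abundant genes. At an unadjusted p below 0.05 by limma, 2 of the 13 were lower, and DESeq2 called 0 lower. Without PBS A, 0 were higher and 1 was lower. Jak1, the kinase on IL-10RA, was at 4486 ± 170 and 4260 ± 165 (-0.07, 95% interval -0.20 to 0.05, limma adjusted p = 0.438). It was called lower by edgeR with its filter on low genes (-0.18) and after rescaling on abundant genes (-0.27). Without that filter edgeR did not call it (-0.10). Tyk2, the kinase on IL-10RB, rose from 525 ± 17.0 to 691 ± 80.3 (0.39, SE 0.10, limma adjusted p = 0.00232), which was lost without PBS A (0.36), without dopamine B (0.27) or after rescaling on abundant genes (0.20). Stat3 was at 1889 ± 73.8 and 1693 ± 53.4 (-0.16, limma adjusted p = 0.127). It was likewise called lower by edgeR with its filter (-0.27) and after rescaling (-0.35), but not by edgeR without the filter (-0.18).

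Socs3, the STAT3-driven feedback inhibitor, was not called by limma: it was at 262 and 392 in PBS A and B and 209 and 294 in dopamine A and B, with overlapping groups (log2 difference -0.37, SE 0.14, adjusted p = 0.0597). It was called lower with edgeR (-0.55), with TMM scaling in limma (-0.39), after rescaling on abundant genes (-0.56), without PBS A (-0.66) and without dopamine B (-0.61). It was not called without PBS B (-0.08), without dopamine A (-0.12) or in DESeq2 (-0.39, adjusted p = 0.492). Socs1, a feedback inhibitor of interferon and IL-4 signalling, rose from 310 ± 41.8 to 475 ± 87.3 (0.61, limma adjusted p = 8.77e-05), though not without PBS A (0.47). Ptpn2 (0.23), a phosphatase of JAK and STAT proteins, rose. That call ended in edgeR with its filter (0.13), after rescaling (0.03) and without PBS A (0.20), PBS B (0.26) or dopamine A (0.17). The direction of this list depended on the scaling and the filter. With edgeR's TMM 2 were higher and 5 lower after its filter, and 3 higher and 1 lower without it. Rescaling on abundant genes gave 1 higher and 6 lower.

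Of 16 genes known to respond to IL-10, mostly from work on macrophages, 6 rose (37.5%) and 1 fell, near the 39.1% of abundant genes called higher. Their median was 0.21, close to the 0.198 of abundant genes, to which 12 of the 16 belong. Those that rose included Gadd45b (from 59.8 ± 4.35 to 155 ± 10.7, log2 difference 1.36), a stress-response gene, Hmox1 (1.25), encoding heme oxygenase 1, Nfil3 (0.66) and Pim1 (0.58). Etv3, a transcriptional repressor, fell from 1085 ± 34.9 to 694 ± 75.4 (-0.65, limma adjusted p = 1.88e-07). Many of these genes also respond to other signals in T cells. With edgeR's TMM 5 rose and 4 fell.

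Among genes for transcription factors known to act on Il10, several that drive it and at least 1 that represses it rose. Of 35 with values, 15 rose (42.9%) and 1 fell by limma, with a median of 0.27. That share is also near the 39.1% of abundant genes, of which 7.90% were called lower, and 30 of the 35 were abundant. Irf4, an activation-induced factor, rose from 7620 ± 142 to 14598 ± 943 (log2 difference 0.94), and its AP-1 partners Batf from 327 ± 1.58 to 588 ± 21.1 (0.85) and Junb from 686 ± 12.4 to 1624 ± 91.0 (1.24). The adjusted p of these by limma was at most 1.26e-08.

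Maf, known to drive Il10 in several helper T cell types, was at 79.8 and 78.9 with PBS and 120 and 129 with dopamine (0.64, SE 0.17, limma adjusted p = 0.00416), which was lost in DESeq2 (0.65) and without dopamine B (0.59). Prdm1, which encodes BLIMP-1, was at 23.8 and 48.3 with PBS and 78.7 and 80.6 with dopamine (1.21, limma adjusted p = 1.99e-04), with 0.71 without PBS A. Bhlhe40, known as a repressor of Il10, rose too, from 302 ± 7.75 to 631 ± 5.40 (1.06, limma adjusted p = 3.53e-11). Tbx21, the Th1 factor, rose by 0.97 and Rbpj, of the Notch pathway, by 1.01. Crem, a cAMP-responsive factor, fell from 961 ± 99.8 to 579 ± 4.70 (-0.73, limma adjusted p = 2.99e-08). Gata3 was at 237 ± 8.70 and 224 ± 24.1 (-0.08, adjusted p = 0.69) and Ahr at 94.3 ± 1.17 and 75.8 ± 1.33 (-0.31, adjusted p = 0.237). After rescaling on abundant genes 12 rose and 7 fell.

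Around Mapkapk2, 8 of 24 genes of the p38 and MK2 pathway rose (33.3%) and 1 fell, with a median of 0.16. Of the 24, 18 were abundant, and the genes that rose were all among these. Among abundant genes 39.1% were called higher and 7.90% lower, with a median of 0.198. The share and median of the list also cover its scarcer genes, so they are not like for like with those values. Mapkapk3, the closest relative of Mapkapk2, rose from 1006 ± 55.5 to 1475 ± 91.1 (log2 difference 0.55, SE 0.08, limma adjusted p = 7.31e-07), beside the 0.45 of Mapkapk2. Mapkapk5 had 1 to 11 reads in each library. Mapk14, which encodes p38-alpha, was at 641 ± 1.13 and 686 ± 47.8 (0.09, adjusted p = 0.515). Among its regulators, Gadd45b (1.36) and Gadd45g (from 443 ± 3.66 to 1136 ± 56.9, 1.36), known as activators of the pathway, rose, and Dusp10, a phosphatase that switches p38 off, fell from 659 ± 133 to 345 ± 14.0 (-0.92, limma adjusted p = 8.63e-09). Of the other regulators on the list, Map2k3 (0.80) rose. Gadd45a (-0.17), Dusp1 (0.02), Map2k6 (-0.34), Map3k7 (0.11), Tab1 (0.04) and Tab2 (-0.06) were not called. Hnrnpa0, an RNA-binding substrate of MK2, rose by 0.50. Zfp36, which encodes tristetraprolin, was at 297 and 330 with PBS and 356 and 428 with dopamine, and its call (0.32, limma adjusted p = 0.0426) ended in 10 of the 13 alternative fits, among them edgeR (0.20) and the fits without PBS A (0.24), PBS B (0.39) or dopamine B (0.18). After rescaling 5 pathway genes rose and 4 fell, and with edgeR's TMM 6 rose and 3 fell.

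Genes associated with IL-10-producing T cells went both ways. Of 17 with values, 10 rose (58.8%) and 5 fell (29.4%), with a median log2 difference of 0.45. Among all genes 14.3% rose and 7.00% fell, and among abundant genes, to which 11 of the 17 belong, 39.1% and 7.90%. Gzmb, encoding granzyme B, rose from 482 ± 30.4 to 7514 ± 330 (log2 difference 3.96), Havcr2, encoding TIM-3, rose by 2.26, and Lag3, a surface receptor of type 1 regulatory cells, rose from 742 ± 61.6 to 1171 ± 58.3 (0.66). Itga2 (-0.69), which encodes CD49b, the marker used together with LAG-3, fell, as did Icos (-1.35), Cd226 (-1.28) and Ctla4 (-1.02). The adjusted p of these genes by limma was at most 0.0499, the value of Itga2. The Itga2 call was lost in DESeq2 (-0.70), in edgeR without its filter (-0.68) and with a pseudocount of 0.1 (-0.71). It was also lost without any 1 of the libraries (-0.88 to -0.50).

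**Figure D4:**
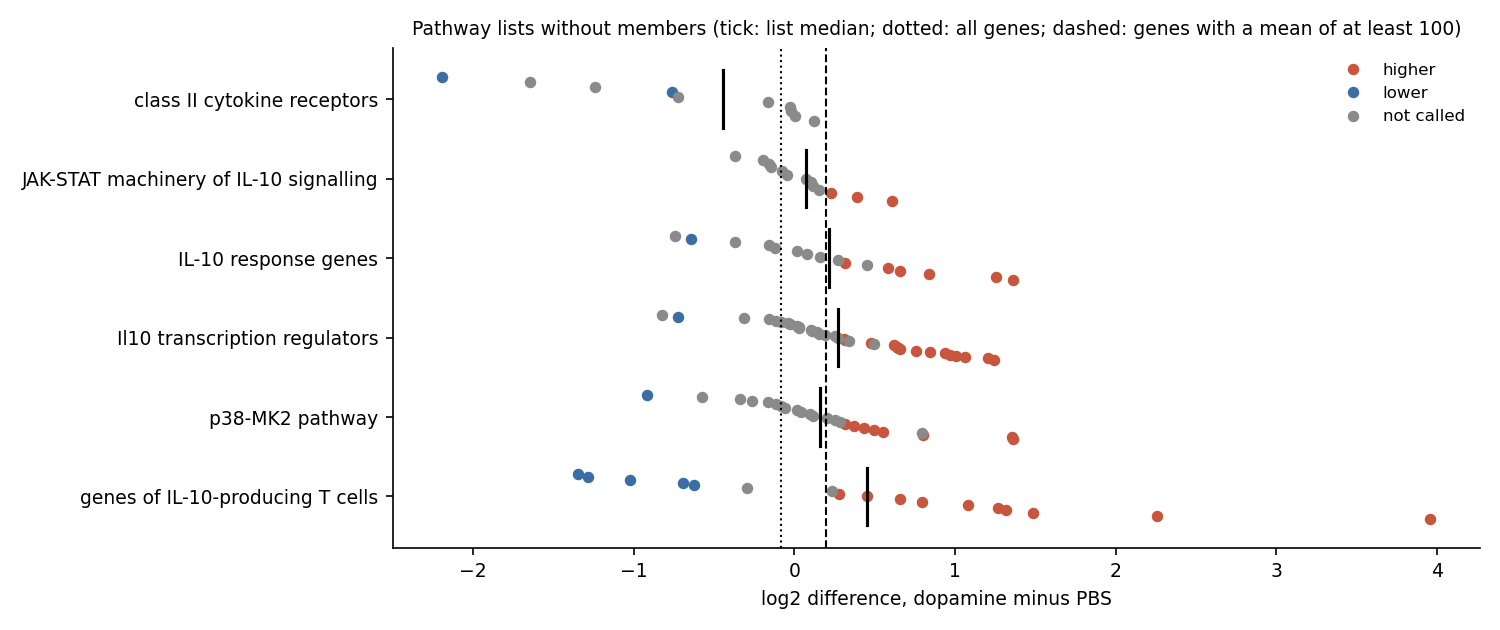
Log2 difference (horizontal axis) of each non-member gene in 6 pathway lists (vertical axis), coloured by limma's call, with the list median as a black tick. The dotted line is the median of all genes (-0.0812) and the dashed line that of abundant genes (0.198). The IL-10 response and p38-MK2 medians lie near the dashed line and the class II receptor median lies left of both.

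Other cell types that can make IL-10 were followed through their markers, and in bulk RNA fewer cells of a type and less RNA per cell cannot be told apart. Of all genes 14.3% were called higher and 7.00% lower. Of the B cell markers, 5 of 8 rose (62.5%) and 0 fell, and 1 of the 8 was abundant. Their summed level was 1502 to 1566 with PBS and 2445 to 2457 with dopamine, most of it Ighm. Ms4a1, encoding CD20, went from 27.2 ± 7.11 to 105 ± 8.52, the largest rise of the 8. Pax5 was level, at 27.2 ± 4.83 and 25.9 ± 1.77 (log2 difference -0.06, limma adjusted p = 0.922). Monocyte and macrophage markers were low, 0 of 9 rising and 3 falling, with sums of 204 to 217 and 94.2 to 97.2. Basophil and mast cell markers also fell, 8 of 9, with sums of 2243 to 2633 and 824 to 898. Of the CD8 T cell markers, Cd8a rose from 27.5 ± 4.28 to 109 ± 9.05 (log2 difference 1.96, limma adjusted p = 2.01e-09), and Cd8b1 was at 73.5 ± 4.21 and 98.1 ± 6.77 (0.41, adjusted p = 0.106). Their summed level was 95 to 107 with PBS and 206 to 209 with dopamine. Genes with values all had at least 8 reads in total, so none could be at 0 in all libraries. Of 10 monocyte and macrophage markers looked for, 9 had values, and 2 of these were at 0 in a library.

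Regulatory T cell markers went both ways: 3 of 8 rose (37.5%) and 2 fell (25%), with a median of 0.24. Of the 8, 5 were abundant, and among abundant genes 39.1% were called higher and 7.90% lower. The markers summed to 3644 to 3763 with PBS and 4430 to 4732 with dopamine. Those that rose were Il2ra (0.51), the alpha chain of the IL-2 receptor that activated T cells also carry, Ikzf2 (0.57), encoding Helios, and Nrp1 (0.76), encoding neuropilin-1, and those that fell were Ctla4 and Foxp3. Foxp3, the factor that defines regulatory T cells, had 11 to 36 reads in each library and was called lower (32.3 and 27.6 with PBS, 14.7 and 10.7 with dopamine, -1.19, limma adjusted p = 0.011), which was lost in DESeq2 (-1.22) and without PBS A (-1.08), PBS B (-1.30) or dopamine B (-0.98). The part of these cell types in the Il10 and Il24 differences was not tested.

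The genes most like each member were found by the distance between log2 profiles over the 4 libraries, each centred on its own mean, among 10672 genes with a mean of at least 20. With 4 libraries such likeness is a description. For Il10 they were Serpinb6b (distance 0.0638), Il15ra (0.0777) and Carmil1 (0.0779). Serpinb6b, a protease inhibitor gene, was at 195, 242, 523 and 514 in the PBS libraries A and B and the dopamine libraries A and B. For Il24 no gene was as close: the nearest were Ccl4 (0.454), Gzma (0.531) and Csf2 (0.592), of which Ccl4, a chemokine gene, was at 110, 135, 829 and 895. For Il10ra they were Tnfrsf10b (0.00741), Taco1 (0.0217) and Srebf1 (0.0258). Mapkapk2 had Ptpn3, Puf60 and Commd5, and Il10rb had Commd5, Slc39a1 and Puf60, so Commd5 and Puf60 were near both.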

How the data were processed

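Total RNA went into a stranded mRNA library kit, per the labels' protocols. Per the submitters' processing notes, FastQC 0.11.2, TopHat2 2.0.13, HTSeq 0.6, DESeq2, R 3.6.2 and mm10 were used. Annotation and strand setting were not given in the sources used here. The deposited table (26207 genes) holds, per the file headers, the authors' DESeq2 log2 fold changes with standard errors, a Wald score, p-values, and a signal per library (read counts divided by a size factor). All of these values (100%) were whole multiples of 1 read within 0.01, so reads were recovered. Column numbers do not match the titles' replicates, so columns were matched to groups only, and 0 columns were of other samples.

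The values were tested with limma 3.58.1 (R 4.3.3; mean-variance trend, log2(value + 1), no filter, two-sided, Benjamini-Hochberg at 0.05), whose variances rest mostly on 42.4 prior degrees of freedom. On the recovered reads edgeR 4.0.16 (quasi-likelihood) called 5219 of 15329 genes. DESeq2 1.42.0, other scalings, filters and pseudocounts, a block and leaving out each library were alternatives. Tests were checked on simulated data with the same extra spread for every gene and as many genes raised as lowered. The calls in the real data were not so balanced, so the check does not carry over in full. Named genes are the members, neighbours with a mean of at least 20, a fixed set of pathway genes, up to 4 further genes per list with the smallest p, and the 3 genes most like each member. Others named were chosen after their values were seen. From the JAK-STAT list 1 gene was left out and is not reported here. Members and lists were chosen with earlier results of these data known. Locations and exon lengths are from GENCODE M21.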

Additional observations from a re-analysis of the deposited data

How the results depend on the processing

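Over 13 alternative fits each, the 65 differences of the 5 members kept their sign. They moved by more than the spread between libraries for Il10 with edgeR (1.17 with TMM, 1.17 with DESeq2 size factors) and, after rescaling on abundant genes (mean 100 or more), for Il10 (1.11), Il24 (3.07), Mapkapk2 (0.26), Il10ra (0.18) and Il10rb (0.21), a scaling that by construction lowers all differences. With 2 libraries per group, leaving out 1 library cannot move a difference by more than that spread, so the ranges are given instead. Leaving out 1 library gave 1.17 to 1.43 for Il10, 3.08 to 3.44 for Il24, 0.33 to 0.57 for Mapkapk2, 0.21 to 0.54 for Il10ra and 0.28 to 0.53 for Il10rb. Genes called numbered 5577, 3273 with DESeq2 and 2914 (without PBS A) to 4299 with 1 library left out (3276 without dopamine B). Of the 5577, 3743 were higher, against 1806 of 4984 after rescaling and 2793 of 5219 with edgeR's TMM. Neighbours called numbered 3, and 1 to 2 with 1 library left out. Class II receptors called fell from 2 to 1 with edgeR (TMM or DESeq2 size factors), DESeq2, a minimum of 5 CPM or a pseudocount of 0.1, and were 1 to 2 with 1 library left out. JAK-STAT genes called went from 3 to 7 with edgeR (either scaling), rescaling or the block (which called Socs3 lower, adjusted p = 0.00265 by limma), and were 1 (without PBS A) to 3 with 1 library left out. Of 47 named non-members, 10 lost and 4 gained a call in at least 1 alternative. The cause of these shifts was not tested. With edgeR and its filter no other IL-10 family ligand was left to test.

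The column numbers (2 and 3) give a pairing by number only. Differences between the numbers correlated at 0.125 across 11611 genes. With the number as a replicate block, 6999 genes were called, and the Il10 difference stayed at 1.30. Depth limits Il20, Il20ra and Il22ra1, which had at most 9 reads in a library.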
